A study of Danio rerio with 15 samples.

Results

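The genes described here encode subunits of the mitochondrial respiratory chain and of the ATP synthase, with a few proteins that go by related names. They were taken from the authors' deposited table of 3164 annotated probe sets, by gene symbol (names beginning with nduf, sdh, uqcr, atp5, cycs or cox and a digit) or by the matching words in the gene title. This gave 24 probe sets for 24 entries, out of 15502 probe sets tested. They comprised 6 genes of complex I, 1 of complex II, 2 of complex III, 6 of complex IV, 7 of the ATP synthase (complex V), the assembly factor cox17, and cox4nb, which the rule takes in by its symbol although it is no subunit. No gene named cycs matched the rule. The table that supplied the names lists a probe set only where its level moved 2-fold or more at some time on these same arrays, so a subunit with smaller changes carries no name here. The direction and size of the members' changes are therefore partly set by how they were found, and their p-values are given as a description.

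Cells came from the retina of 5- to 6-month old zebrafish of the line Tg(gfap:GFP)mi2002, in which the gfap promoter drives GFP in Müller glia, the radial glia from which the fish retina regrows neurons. GFP-positive cells were sorted by flow cytometry from unlesioned fish (0 hours post-lesion, hpl) and at 8, 16, 24 and 36 hpl after a light lesion, with 3 biological replicates per time and 1 Affymetrix array each, 15 arrays in all. The transgene was present in all groups, and total RNA was linearly amplified before labelling. Values are log2 RMA values, and differences are on the log2 scale. Unless stated otherwise, the standard error (SE) is that of the limma fit. Calls are at an adjusted p under 0.05 over all probe sets tested.

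The respiratory chain sits in the inner mitochondrial membrane. Complexes I and II feed electrons from NADH and succinate into ubiquinone, complex III passes them to the mobile carrier cytochrome c, and complex IV hands them to oxygen. The proton gradient built by complexes I, III and IV drives the ATP synthase, whose catalytic head is held against a rotating ring by a peripheral stalk. All members named here are encoded in the nucleus and their proteins are imported into the organelle, apart from cox4nb. In the retina most oxygen is used by photoreceptors, while Müller glia are known for a largely glycolytic metabolism.

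Array medians lay between 4.41 and 4.67, and arrays of a time correlated with each other at 0.973 to 0.991 across probe sets. The median change of all probe sets against 0 hpl was -0.10, -0.14, -0.11 and -0.14 at 8, 16, 24 and 36 hpl, and 0.19, 0.25, 0.20 and 0.38 with arrays scaled on the spiked hybridisation controls. Rises made up 45.3%, 45.6%, 53.4% and 42.8% of all calls on the deposited scale, 66.3%, 60.2%, 60.5% and 52.6% with arrays centred on their median, and 87.4%, 86.2%, 81.9% and 88.2% with that scaling. The members' means at 0 hpl lay between 5.37 and 8.63, above the median of the unlesioned arrays (4.63). RMA values carry no detection calls and do not rank one gene's abundance against another's.

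All 24 members were higher at 36 hpl than at 0 hpl, and none was called lower at any time (of all probe sets 14.5%, 21.9%, 14.2% and 26.6% were, at 8, 16, 24 and 36 hpl). At 8 hpl 9 of 24 were called higher, where 12.0% of all probe sets were. At 16 hpl 19 were called higher against 18.4% of all probe sets, at 24 hpl 19 against 16.3%, and at 36 hpl 24 against 19.9%. Their median difference from 0 hpl was 0.54, 1.01, 0.95 and 1.36 at the 4 times. All 3 arrays stood above all 3 control arrays for 12, 21, 24 and 24 members, and for 15.3%, 22.2%, 20.8% and 22.6% of all probe sets. Because of the 2-fold selection a closer background is the 1895 probe sets of the authors' table whose largest change was a rise. Of those, 61.7%, 82.6%, 82.4% and 90.0% were called higher at the 4 times, and only 32, 15, 5 and 5 of the 1895 lower. The absence of lower calls among the members is thus close to this background. All 3 arrays stood above all 3 control arrays for 1227, 1615, 1631 and 1725 of the 1895, so most of that background did so too. The median differences of the 1895 were 0.73, 1.21, 1.18 and 1.31. Beside them the members' median was lower at 8, 16 and 24 hpl and close at 36 hpl.

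**Figure D1:**
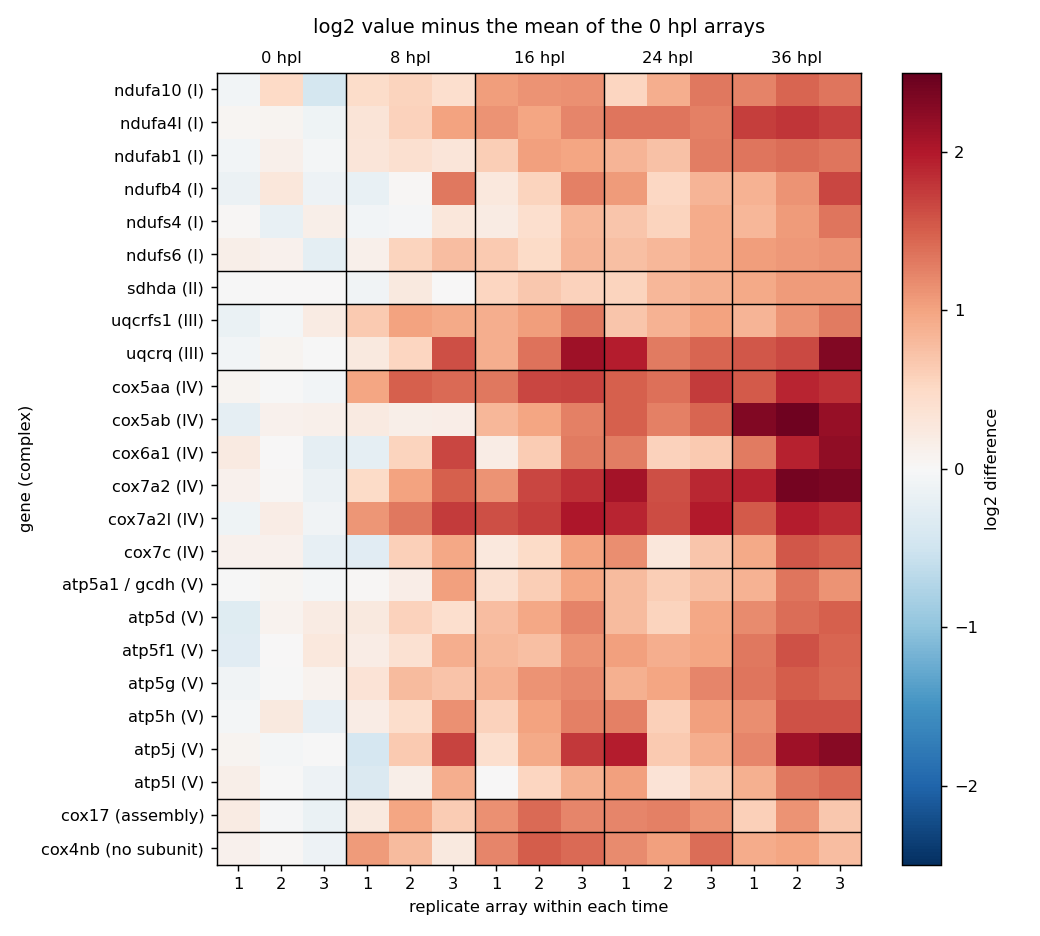
Log2 value of each of the 24 members (rows, with the complex in brackets) on each of the 15 arrays (columns, replicate 1 to 3 within each time), minus the gene's mean on the 0 hpl arrays; red is higher and blue lower. Every member is above its control mean on all arrays from 16 hpl on, while on 8 hpl replicate 1 several members lie below it.

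From one time to the next few members passed the test. Between 8 and 16 hpl 6 members were called higher and none lower (5.48% and 3.12% of all probe sets), between 16 and 24 hpl none in either direction (0.290% and 0.271%), and between 24 and 36 hpl 1 higher and none lower (3.11% and 2.03%). Of the 1895 rising probe sets 32.1%, 1.74% and 13.7% were called higher in these steps, and 55, 17 and 61 probe sets lower. The members' shares called higher were 25%, 0% and 4.17%. They rest on few calls among 24 genes and were not tested against those of the 1895. At an unadjusted limma p under 0.05 the members numbered 13, 1 and 7 higher (12.5%, 5.59% and 8.66% of all probe sets) and 0, 0 and 1 lower (7.49%, 5.30% and 11.7%). Against 0 hpl no member was lower on that measure, where 23.8%, 28.8%, 21.1% and 31.5% of all probe sets were at 8, 16, 24 and 36 hpl. Each member had entered through a rise of 2-fold or more, so those shares are no like background for falls. The median differences of these steps were 0.42, 0.10 and 0.40, where all probe sets had -0.0046, 0.03 and -0.05. The 1895 rising probe sets had 0.47, 0.02 and 0.06. All 3 later arrays stood above all 3 earlier ones for 8, 2 and 10 members, and for 13.6%, 10.4% and 11.1% of all probe sets. Among the 1895 rising probe sets they did so for 1004, 241 and 469. The highest group mean fell at 36 hpl for 20 of 24 members (83.3%), against 45.3% of the 1895 rising probe sets. The latter peaked at 16 hpl in 30.8% of cases, and 3 members did. These shares describe the order of group means only.

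Complex I, the entry point for NADH, was represented by 6 nuclear subunit genes, and all of them were above the control arrays from 24 hpl. The largest change was in ndufa4l, now ndufa4a in RefSeq, whose product was first assigned to complex I and in mammals has since been found with complex IV. Its values were 7.75, 7.78 and 7.59 at 0 hpl, 8.03, 8.28 and 8.71 at 8 hpl, 8.83, 8.68 and 8.92 at 16 hpl, 9.04, 9.05 and 8.96 at 24 hpl, and 9.44, 9.49 and 9.41 at 36 hpl. No array of a lesioned group overlapped the controls, and the 36 hpl arrays lay above those of every earlier time. This was a 3.34-fold rise at 36 hpl (log2 difference 1.74 ± 0.15 SE, adjusted p = 3.33e-07 in limma, n = 3 per group).

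The smallest complex I change at 36 hpl was in ndufs4, an accessory subunit of the matrix arm that is known from inherited complex I deficiency. It stood at 6.98, 6.77 and 7.11 at 0 hpl, 6.88, 6.92 and 7.24 at 8 hpl, 7.16, 7.38 and 7.79 at 16 hpl, 7.64, 7.51 and 7.88 at 24 hpl, and 7.78, 8.02 and 8.30 at 36 hpl. The 8 hpl arrays overlapped the controls (0.06 ± 0.18 SE, adjusted p = 0.844), and those of 16 hpl and later did not. The difference at 36 hpl was 1.08 ± 0.18 SE. The matrix-arm subunit ndufs6 (1.09 ± 0.17 SE), the membrane-arm subunit ndufb4 (1.22 ± 0.34 SE), ndufa10 (1.35 ± 0.21 SE) and the acyl carrier protein ndufab1 (1.35 ± 0.15 SE) lay between these genes. At 8 hpl ndufa4l and ndufs6 were called, and ndufb4 was called at 36 hpl alone. The 8 hpl call of ndufs6 was near the limit (adjusted p = 0.0419 in limma) and its arrays overlapped the controls. It was not followed through other settings. The 8 hpl call of ndufa4l was lost in 3 other settings, and the 16 hpl call of ndufs4 (adjusted p = 0.0448) in 12 (adjusted p = 0.0448 to 0.402), including 7 that left out a single array. Both counts take in the 2-fold minimum, and that of ndufs4 also the limit of 0.01. Under these stricter limits the adjusted p itself was unchanged.

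Complex II, which is also an enzyme of the citric acid cycle, was represented by its membrane anchor sdhda. The 0 hpl values were 5.36, 5.38 and 5.38, and the 8 hpl values 5.28, 5.62 and 5.37. They were followed by 5.90, 6.06 and 5.96 at 16 hpl, 5.92, 6.20 and 6.27 at 24 hpl, and 6.31, 6.44 and 6.44 at 36 hpl. At 8 hpl sdhda thus overlapped the controls, and from 16 hpl every array lay above them. The step from 8 to 16 hpl was 0.55 ± 0.13 SE (adjusted p = 0.0156), and the whole rise at 36 hpl 2.04-fold (1.03 ± 0.13 SE, adjusted p = 1.39e-05). This gene was also nearest to the 2-fold limit of the authors' deposited table, with a largest fold of 2.04 there, followed by ndufs4 with 2.11.

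The complex III genes had similar differences from 0 hpl at 8 hpl, and differed in the size of the rise at 36 hpl and in scatter. No test compared them. The Rieske iron-sulphur protein uqcrfs1, which carries electrons from ubiquinol towards cytochrome c1, stood at 6.90, 7.01 and 7.25 at 0 hpl and at 7.71, 8.05 and 8.01 at 8 hpl. It then stayed at 7.95, 8.09 and 8.37 at 16 hpl, 7.75, 7.92 and 8.05 at 24 hpl, and 7.89, 8.17 and 8.34 at 36 hpl. The lesioned arrays of all times overlapped each other and none overlapped the controls. At 8 hpl uqcrfs1 had risen by 0.87 ± 0.16 SE (adjusted p = 0.00117), which was 80.6% of its difference at 36 hpl (1.08 ± 0.16 SE).

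The small complex III subunit uqcrq showed a larger and more scattered change. It measured 5.75, 5.88 and 5.80 at 0 hpl, 6.06, 6.35 and 7.43 at 8 hpl, 6.71, 7.17 and 7.94 at 16 hpl, 7.78, 7.12 and 7.27 at 24 hpl, and 7.37, 7.46 and 8.13 at 36 hpl. All lesioned arrays were above the controls, but the 8 hpl arrays spanned more than a log2 unit. The 8 hpl difference (0.80 ± 0.34 SE, adjusted p = 0.0895) did not pass the test. It was 0.39 without 8 hpl replicate 3 and 1.08 without 8 hpl replicate 1, and with the latter left out it was called (adjusted p = 0.0443). At 36 hpl the rise was 3.59-fold (1.84 ± 0.34 SE, adjusted p = 0.000411).

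Complex IV, the oxidase that reduces oxygen, had the highest median of the complexes with more than 2 genes at 36 hpl (1.80, against 1.28 for complex I and 1.43 for complex V). It also held the member with the largest 8 hpl difference, cox7a2l, and the one member called between 24 and 36 hpl, cox5ab. At 8 hpl 3 of its 6 genes were called, and their differences ranged from 0.18 to 1.39. By 36 hpl all 6 were called and differed by 1.33 to 2.31. Without 8 hpl replicate 3, 16 hpl replicate 3 and 24 hpl replicate 1, arrays on which many members were high, all 24 members remained called at 36 hpl. None of these arrays enters the difference between 36 and 0 hpl. Their omission could change only the shared spread, so it is no check of those differences.

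**Figure D2:**
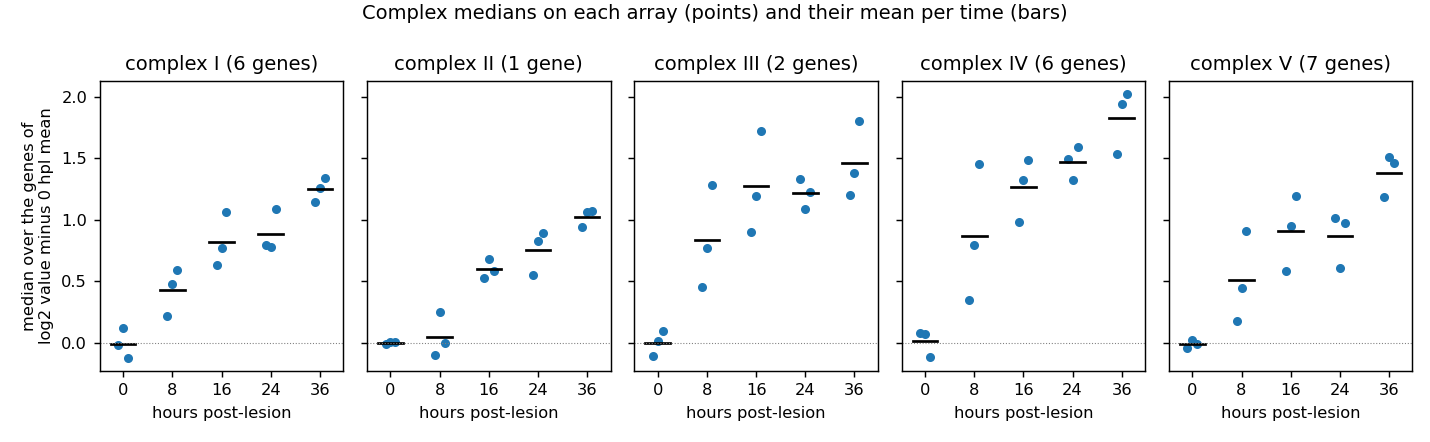
Median over the genes of each complex of the log2 value minus the gene's 0 hpl mean, against hours post-lesion; points are the 3 arrays of a time and bars their mean. At 8 hpl the arrays of complexes III, IV and V are far apart, and at 36 hpl every array of every complex lies above all of its 0 hpl arrays.

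The gene pair for subunit Va, cox5aa and cox5ab, changed at different times. The values of cox5ab were 6.23, 6.55 and 6.57 at 0 hpl, 6.66, 6.60 and 6.60 at 8 hpl, 7.28, 7.44 and 7.71 at 16 hpl, 7.95, 7.71 and 7.89 at 24 hpl, and 8.76, 8.87 and 8.62 at 36 hpl. The values of cox5aa were 7.44, 7.37 and 7.32 at 0 hpl, 8.36, 8.87 and 8.79 at 8 hpl, 8.69, 9.05 and 9.06 at 16 hpl, 8.88, 8.76 and 9.12 at 24 hpl, and 8.91, 9.27 and 9.20 at 36 hpl. All lesioned arrays of cox5aa lay above its controls, and its 16, 24 and 36 hpl groups overlapped. No groups of cox5ab overlapped, but its 8 hpl arrays lay just above the controls and the distances came later.

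At 8 hpl cox5aa had risen 2.46-fold (1.30 ± 0.16 SE, adjusted p = 4.23e-05), 73.9% of its later difference, while cox5ab differed by 0.18 ± 0.14 SE (adjusted p = 0.369). At 36 hpl cox5ab had risen 4.94-fold (2.31 ± 0.14 SE, adjusted p = 1.04e-08), the largest rise of all members, and cox5aa 3.37-fold (1.75 ± 0.16 SE). Between 24 and 36 hpl cox5ab rose by 0.90 ± 0.14 SE (adjusted p = 0.00112), the one member called in that step. The difference between the 2 genes' changes was 1.12 ± 0.23 SE from 0 to 8 hpl and -0.69 ± 0.15 SE from 24 to 36 hpl. For this comparison and that of the next gene pair, the SE came from the arrays of the compared times alone, without limma. Arrays of the compared times did not overlap in either case, and each two-sided exact permutation p was 0.1, the smallest that 3 against 3 arrays allow. Of 6 such differences computed in this and the next gene pair, each had this p before and after Benjamini-Hochberg adjustment. Both pairs were singled out after their values were seen.

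The genes cox7a2 and cox7a2l are also related, the first encoding a subunit VIIa isoform and the second a protein that in mammals joins complexes III and IV into supercomplexes. On the arrays cox7a2l read 5.55, 5.84 and 5.57 at 0 hpl, 6.76, 6.96 and 7.41 at 8 hpl, 7.26, 7.37 and 7.67 at 16 hpl, 7.55, 7.29 and 7.62 at 24 hpl, and 7.19, 7.62 and 7.52 at 36 hpl. It had the largest 8 hpl difference of all members (1.39 ± 0.18 SE, 2.62-fold, adjusted p = 5.7e-05), and its groups from 16 hpl on overlapped. For cox7a2 the difference was 0.99 ± 0.24 SE at 8 hpl and 2.22 ± 0.24 SE at 36 hpl, a 4.67-fold rise. The change of cox7a2l from 24 to 36 hpl was smaller than that of cox7a2 by 0.41 ± 0.08 SE (exact permutation p = 0.1).

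The smallest complex IV change at 36 hpl was in cox7c, a small membrane subunit. It stood at 8.33, 8.33 and 8.03 at 0 hpl, 7.95, 8.82 and 9.20 at 8 hpl, 8.50, 8.72 and 9.23 at 16 hpl, 9.40, 8.52 and 8.94 at 24 hpl, and 9.18, 9.79 and 9.72 at 36 hpl. The 8 hpl arrays lay on both sides of the controls, and with the settings used throughout the gene was called only at 36 hpl (1.33 ± 0.29 SE, adjusted p = 0.00182). Under other settings cox7c was also called at 16 hpl in 2 (adjusted p = 0.00692 to 0.0459) and at 24 hpl in 4 (adjusted p = 0.0049 to 0.041). The membrane subunit cox6a1 read 6.00, 6.79 and 7.90 at 8 hpl against 6.44, 6.23 and 5.99 at 0 hpl, 1 array within the control range and 2 above it. Its step from 24 to 36 hpl (0.97 ± 0.39 SE, adjusted p = 0.17) was as large as that of cox5ab but did not pass the test at that spread.

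The ATP synthase was represented by 7 entries from its head, stalks, ring and membrane part, which were all higher at 36 hpl by 1.11 to 1.87. The largest difference was in atp5j (atp5pf in RefSeq), coupling factor F6 of the peripheral stalk. Its values were 8.16, 8.06 and 8.09 at 0 hpl, 7.68, 8.77 and 9.80 at 8 hpl, 8.52, 9.05 and 9.87 at 16 hpl, 10.08, 8.75 and 9.02 at 24 hpl, and 9.32, 10.22 and 10.37 at 36 hpl. The control arrays were close together and the lesioned arrays far apart, with an SD of 1.06 at 8 hpl. The 3.65-fold rise at 36 hpl (1.87 ± 0.47 SE, adjusted p = 0.00421) was called and the differences at 8, 16 and 24 hpl were not. Other settings called atp5j at 16 hpl in 4 cases (adjusted p = 0.00856 to 0.044) and at 24 hpl in 5 (adjusted p = 0.00715 to 0.032), among them the fits without 8 hpl replicate 1 or 8 hpl replicate 3.

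The other stalk and ring genes were less scattered. The ring subunit c gene atp5g (atp5mc3b) rose by 0.62 ± 0.15 SE at 8 hpl and by 1.43 ± 0.15 SE at 36 hpl, the only ATP synthase entry called at 8 hpl. For the peripheral stalk genes atp5f1 (subunit b, atp5pb) and atp5h (subunit d, atp5pd) the 36 hpl differences were 1.46 ± 0.19 SE and 1.46 ± 0.25 SE. The central stalk gene atp5d (atp5f1d) rose by 1.36 ± 0.17 SE and the membrane subunit g gene atp5l by 1.20 ± 0.28 SE.

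The smallest ATP synthase difference came from a probe set annotated with both atp5a1, the alpha subunit of the catalytic head, and the unrelated gcdh, so that its signal cannot be given to either gene. It measured 8.28, 8.34 and 8.22 at 0 hpl, 8.32, 8.44 and 9.31 at 8 hpl, 8.69, 8.90 and 9.26 at 16 hpl, 9.07, 8.89 and 9.03 at 24 hpl, and 9.16, 9.61 and 9.41 at 36 hpl. The 8 hpl arrays overlapped the controls and those of 16 hpl and later did not. The calls of atp5a1 /// gcdh at 16 and 24 hpl were lost in 6 and 7 other settings (adjusted p up to 0.157 and 0.0803). Both counts take in the limit of 0.01 and the 2-fold minimum, under which the adjusted p itself was unchanged. The 36 hpl difference of atp5a1 /// gcdh was 1.11 ± 0.22 SE (adjusted p = 0.000781).

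**Figure D3:**
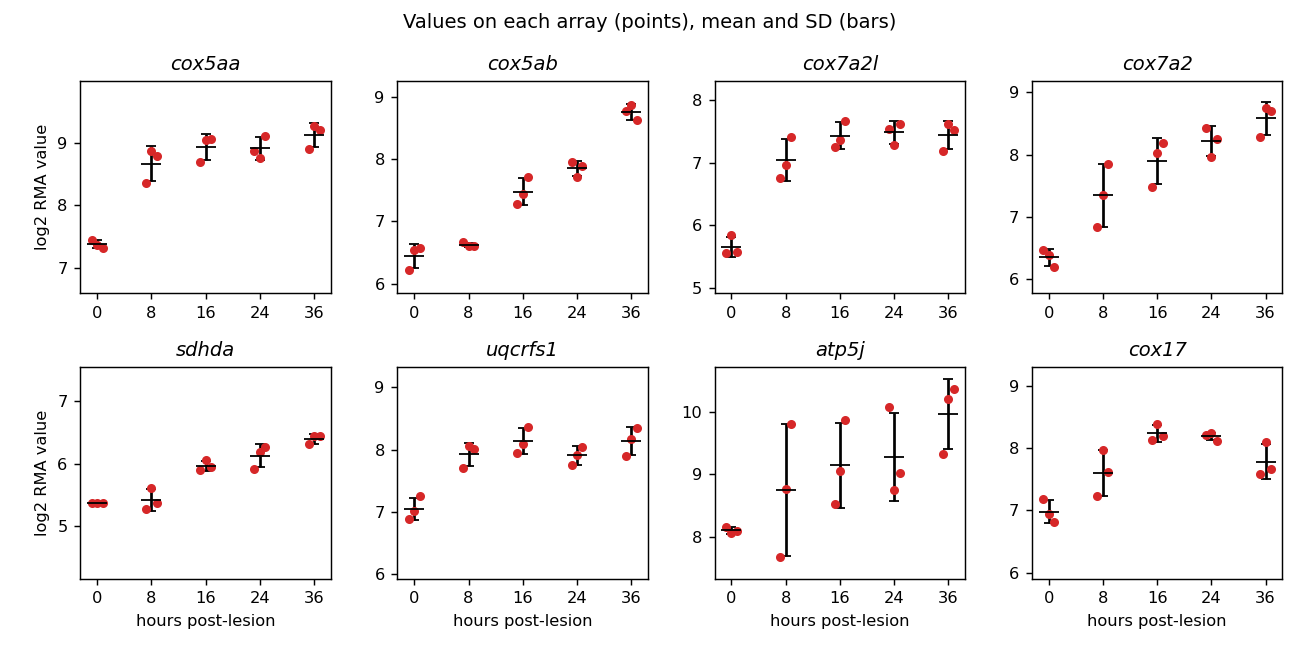
Log2 RMA values of 8 members against hours post-lesion, with points for the 3 arrays of a time and bars for their mean and SD; every panel spans the same number of log2 units. The Va pair separates at 8 hpl (cox5aa 8.36 to 8.87 from 7.32 to 7.44, cox5ab 6.60 to 6.66 beside 6.23 to 6.57), sdhda is tightly grouped, atp5j is scattered after the lesion, and cox17 is lower at 36 hpl than at 16 hpl.

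The entries that are not subunits had their highest group means at 16 hpl, as did the subunit gene uqcrfs1. The copper chaperone cox17, which delivers copper for the assembly of complex IV, read 7.18, 6.94 and 6.82 at 0 hpl, 7.23, 7.96 and 7.61 at 8 hpl, 8.13, 8.39 and 8.20 at 16 hpl, 8.21, 8.23 and 8.11 at 24 hpl, and 7.58, 8.10 and 7.66 at 36 hpl. Its values were highest at 16 and 24 hpl, and the 36 hpl arrays lay below those of 24 hpl without overlap. The gene cox4nb, named for lying next to a subunit IV gene and now called emc8 after a membrane protein insertion complex of the endoplasmic reticulum, differed by 1.39 at 16 hpl and 0.89 at 36 hpl. At 16 hpl the differences of cox17 and cox4nb were 157% and 155% of those at 36 hpl, whereas among the subunits that match the rule the highest such share at any earlier time was 102% (cox7a2l at 24 hpl), and uqcrh, named by its updated symbol, had 104%. The falls from 24 to 36 hpl (-0.40 ± 0.18 SE, adjusted p = 0.226 for cox17, and -0.31 ± 0.18 SE, adjusted p = 0.362 for cox4nb) did not pass the test. These genes were singled out after their values were seen.

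The share of the 36 hpl difference already present at 8 hpl varied between members. It was 36.6% in the median over all 24, 33.75% for complex I, 4.88% for sdhda, 62.05% for complex III, 40.85% for complex IV and 34.6% for complex V. Apart from cox17 and cox4nb, 3 members passed 70% at 8 hpl, uqcrfs1, cox7a2l (77.7%) and cox5aa. Other genes of the same complexes were lower, with 43.5% for uqcrq, 31.8% for cox7c and 7.68% for cox5ab. The lowest shares were those of cox5ab, ndufs4 (5.24%) and sdhda. These shares rest on the deposited scale and carry the error of both differences.

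The scatter between arrays was shared by many members and was not even across them. The SD within a time, pooled over the 5 times, ran from 0.12 for sdhda and 0.15 for cox5ab to 0.49 for uqcrq, 0.50 for ndufb4, 0.57 for cox6a1 and 0.69 for atp5j. On 8 hpl replicate 3 a total of 19 of 24 members lay above the mean of their time, on 16 hpl replicate 3 22 did, and on 24 hpl replicate 1 15 did. The same 13 members lay above it on all 3 of these arrays. The largest mean excess over them was that of atp5j (0.86), then cox6a1 (0.68), uqcrq (0.62) and ndufb4 (0.58). These arrays were chosen after the values were seen, and members were high on others too. The members' median deviation was 0.05 on 24 hpl replicate 3, beside 0.04 on 24 hpl replicate 1. On the 36 hpl arrays it was -0.23, 0.11 and 0.08 for replicates 1 to 3.

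The 75 named genes with a cytosolic ribosomal protein symbol (beginning with rpl, rps or rpp, which takes in rpp25l of another family), a list added after the data were seen, rose over time too, with medians of 0.53, 1.43, 1.69 and 2.08 and 29, 73, 75 and 75 called higher (1 lower at 8 hpl) at the 4 times. These genes were named under the same 2-fold selection. Of the 1895 rising probe sets 61.7%, 82.6%, 82.4% and 90% were called higher, with medians of 0.73, 1.21, 1.18 and 1.31. Within a time the ribosomal protein genes deviated in the same direction as the members on most arrays. Their median deviation from the mean of the time was -0.28, -0.08 and 0.36 on the 3 arrays of 8 hpl, where the members had -0.32, 0.01 and 0.33, and all probe sets 0.01, 0.04 and -0.06. At 16 hpl the ribosomal protein genes had -0.19, -0.05 and 0.23 and the members -0.23, -0.04 and 0.24. The mitochondrial import list had 0.02, 0.14 and -0.23 at 8 hpl and 0.15, -0.11 and -0.10 at 16 hpl. The mitochondrial ribosome list had -0.07, 0.14 and -0.11 at 8 hpl, unlike the members, and -0.12, -0.08 and 0.19 at 16 hpl. The mean of 6 named genes of other retinal neurons ran against the members at 8 hpl, with 7.47, 6.95 and 6.41 on replicates 1 to 3, where it was 6.45 to 6.51 at 0 hpl. Rod and cone genes had 6.81, 7.06 and 6.28 there. The part of these cells in the members' levels was not tested. With the 3 high arrays left out, the step from 8 to 16 hpl had 1 member called in place of 6. That step also had 1 without 16 hpl replicate 2 alone and 2 without 8 hpl replicate 1 alone, arrays that are not among the 3. With the 3 high arrays left out the 24 calls at 36 hpl stayed, but none of the 3 enters that difference.

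**Figure D4:**
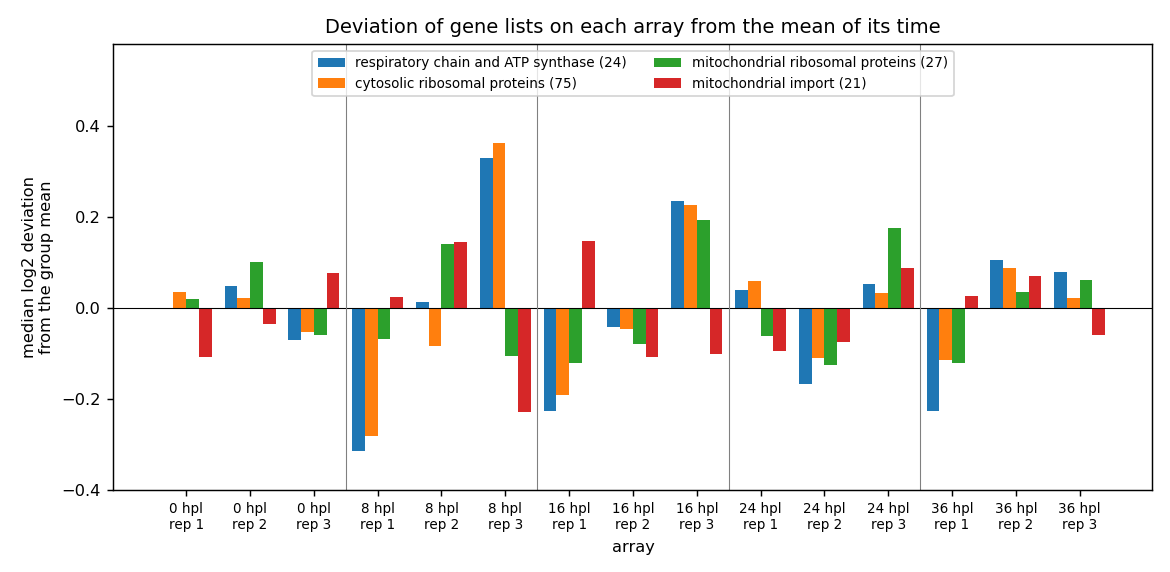
Median deviation (log2) of 4 gene lists on each of the 15 arrays from the gene's mean at that time, with the number of genes in brackets. Respiratory chain and cytosolic ribosomal protein genes are low on replicate 1 and high on replicate 3 at 8 and 16 hpl, and the mitochondrial import genes run the other way on 8 hpl replicate 3 (-0.23).

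A further 10 genes match the rule only once the clone names of the table are replaced by RefSeq symbols, a step added after the data were seen. They are ndufa3, ndufa8 and ndufb6 of complex I, the complex III hinge protein uqcrh, cox5ba, cox6c, cox7b and cox8a of complex IV, the ATP synthase inhibitory factor atp5if1a, and cytochrome c itself, cycsb. They numbered 5, 8, 8 and 9 called higher of 10 at 8, 16, 24 and 36 hpl, with median differences of 0.55, 0.90, 1.09 and 1.44. The gene not called at any time was ndufa3 (1.17 ± 0.50 SE at 36 hpl, adjusted p = 0.0676), whose arrays at 8 hpl read 6.00, 6.64 and 7.87. Among the others atp5if1a, whose product blocks ATP hydrolysis by the synthase, was 4.01-fold higher at 36 hpl (adjusted p = 4.45e-05).

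Cytochrome c had the largest difference of the 34 genes. On the arrays cycsb stood at 7.42, 7.71 and 7.30 at 0 hpl, 9.34, 9.99 and 9.39 at 8 hpl, 10.14, 10.26 and 10.23 at 16 hpl, 10.24, 10.20 and 10.26 at 24 hpl, and 10.33, 10.29 and 10.16 at 36 hpl. The 8 hpl arrays were already far above the controls, and the groups from 16 to 36 hpl overlapped. The rise of cycsb was 4.29-fold at 8 hpl (2.10 ± 0.16 SE, adjusted p = 4.27e-07) and 6.88-fold at 36 hpl (2.78 ± 0.16 SE, adjusted p = 6.08e-09). The haem-bearing complex III subunit cyc1, outside the rule by its name, had the same form, with 1.45 ± 0.15 SE at 8 hpl and 1.89 ± 0.15 SE at 36 hpl. The share of the 36 hpl difference present at 8 hpl was 75.4% for cycsb and 76.9% for cyc1, and among the other added genes of complexes III and IV it ran from 26.7% for cox7b to 63.9% for uqcrh.

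Other mitochondrial genes were counted from lists of the same table, under the same 2-fold selection. All 27 mitochondrial ribosomal protein genes were called higher at 16, 24 and 36 hpl and 23 of them at 8 hpl, with medians of 0.86, 1.23, 1.30 and 1.42; examples are mrps34 (1.41 ± 0.17 SE at 8 hpl), mrps23 and mrpl17. Of 21 genes for protein import and inner membrane organisation 18, 21, 20 and 20 were called higher and none lower. Their medians were 0.95, 1.52, 1.35 and 1.24, highest at 16 hpl, with the inner membrane channel timm23a at 2.25 ± 0.21 SE, the co-chaperonin hspe1 at 1.97 ± 0.20 SE and timm13 at 1.38 ± 0.16 SE at 8 hpl. At 8 hpl both lists thus had higher medians than the respiratory chain genes (0.54).

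Few enzymes of the citric acid cycle and few carriers were named. Of 4 citric acid cycle and pyruvate dehydrogenase genes 3 were called higher from 16 hpl, among them fumarase (fh, 1.26 ± 0.16 SE at 36 hpl) and dldh, and pdk4, the kinase that shuts off pyruvate dehydrogenase, fell at all times (-2.26 ± 0.29 SE at 8 hpl). Of 4 carriers 3 were called higher from 16 hpl, among them the porin vdac2 and ucp2, and the uncoupling protein ucp1 fell (-1.55 ± 0.19 SE at 8 hpl and -2.49 at 36 hpl). Of 8 genes for mitochondrial genome upkeep and its nuclear regulators 4, 6, 6 and 5 were called higher and 2, 2, 2 and 1 lower. Among them the DNA-binding ssbp1 and the elongation factor tufm rose (1.19 and 1.54 at 36 hpl) and the receptor esrrga fell (-1.40).

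Markers of the sorted cells and of other cells were measured beside these changes. Of the 7 named Müller glia genes 5 had control means well above the median of the unlesioned arrays, among them glula (11.7 to 11.8) and rlbp1a (11.28 to 11.4), and glulb (6.64 to 6.90) and s100b (5.78 to 7.14) lay nearer to it. The mean of the 7 named genes of that list was 9.44 to 9.68 at 0 hpl and 8.21 to 8.34 at 36 hpl, where 6 were called lower and 1, glulb, higher; cahz stands on the red blood cell list too. Rod and cone transcripts were present too. Their 17 named genes had means of 6.16 to 7.07 at 0 hpl, 6.28 to 7.06 at 8 hpl and 5.27 to 5.96 at 36 hpl, with 13 called lower and 1 higher at 36 hpl, and rho read 9.42 to 9.99 in the controls. At 8 hpl 4 of the 17 were called lower and 2, gngt1 and rbp3, higher. Of the 6 neuron genes 3 were called higher at that time, gad1b, gad2 and vsx1, and 1 lower. No named gene belonged to the list for microglia and leukocytes, which does not show that such cells were absent. Marker genes were named under the same 2-fold selection, so a marker with smaller changes was not seen. The named genes were 7 of 17 listed for Müller glia, 17 of 62 for rods and cones and 6 of 43 for other retinal neurons. In bulk samples fewer cells of a type and less RNA per cell cannot be told apart.

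Cycling genes were measured over the same times. All 13 named genes of that list were called higher at 36 hpl, with mean values of 6.78 to 7.24 against 4.58 to 4.74 at 0 hpl, and all 24 members were called at 36 hpl too. At 8 hpl 5 of the 13 were called lower and none higher, at 16 hpl 5 lower and 1 higher, and at 24 hpl 5 higher and none lower. At 8 hpl, when 9 members were called higher, no cycling gene was. Between 16 and 24 hpl 4 of 13 cycling genes were called higher, beside no member, and between 24 and 36 hpl 10 were, beside the 1 member. The part of the cell cycle in the members' levels was not tested. The remaining lists held few named genes, 6 of other retinal neurons, 2 of red blood cells and 1 of pigment epithelium. None of them was called higher at 36 hpl, and 3, 2 and 1 were called lower.

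In the authors' deposited table no member had a p-value under 0.05 at 8, 16 or 24 hpl, and 3 did at 36 hpl, ndufa4l (0.017), cox5ab (0.0215) and cox7a2 (0.0447). At such a p 1.52%, 6.04%, 6.64% and 9.13% of all probe sets in the authors' deposited table were higher at the 4 times. The test behind the authors' deposited table is not stated, and its fold changes reached 2 for 2, 12, 10 and 22 members at the 4 times, and for 21.5%, 40.4%, 38.7% and 45.6% of its probe sets.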

How the data were processed

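The deposited log2 values were made by the authors with RMA, per the submitters' processing notes, which name no version. Another deposited table gives the authors' signed fold score against 0 hpl (a fall is negative) and p-values of unstated test and adjustment. Control probe sets (115) stayed out, and since low values were not filtered all 24 members entered. The 5 times were modelled as groups over the 15 arrays and 15502 probe sets with lmFit and eBayes (limma 3.58.1, R 4.3.3), with Benjamini-Hochberg adjustment over all probe sets and calls at 0.05. The fit was tested on simulated data with independent noise, which lack the scatter that members share on an array. Exact permutation tests used scipy 1.17.1.

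Symbols are those of the authors' table, 1 probe set each, with current names from RefSeq. The members, complexes and lists were chosen with earlier results of these data known. Values on every array are given, by rule, for the members with the largest and the smallest 36 hpl difference of each complex; cox5aa, cox7a2l, cox6a1, cox17 and the cytochrome genes were added after their values were seen. Names from other mitochondrial lists are the called genes of smallest F-test p, and marker genes were named after their values were seen. The rule leaves out 1 gene, which is not reported here. Alternatives were another normalisation, scaling or variance model, array weights, fewer arrays, a replicate block and stricter calls. Replicate numbers recur at every time, but over all probe sets only 9 of 30 same-numbered pairs of arrays deviated together at a correlation over 0.1 (-0.34 to 0.40), so they were not used as pairs. Among the 24 members, though, replicate 1 was the lowest of its time for 20, 21 and 20 at 8, 16 and 36 hpl. At 0 and 24 hpl it was so for 10 and 5. Replicates are labelled as biological; precision is limited by there being 3 arrays per time.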

Additional observations from a re-analysis of the deposited data

Results flagged for a closer look

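Members whose difference from 0 hpl was not the same at 2 neighbouring times, by limma's test of that step, are given here. Between 8 and 16 hpl cox5ab rose by 0.85 (adjusted p = 0.00175), cox4nb by 0.69 (adjusted p = 0.0255), cox17 by 0.64 (adjusted p = 0.0412), atp5d by 0.58 (adjusted p = 0.0484), sdhda by 0.55 (adjusted p = 0.0156) and ndufab1 by 0.54 (adjusted p = 0.0383). In sdhda, cox5ab, atp5d and ndufab1 the 8 hpl difference had not passed the test, so that the first called rise came at 16 hpl. Between 24 and 36 hpl cox5ab rose by 0.90 (adjusted p = 0.00112). Groups of 3 arrays are too small for a check of single outlying samples.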

How the results depend on the processing

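All 24 members were called higher at 36 hpl under every setting tried over them except a 2-fold minimum, which left 22, and none was called lower at any time. Left out one array at a time, the members called higher numbered 7 to 12 at 8 hpl, 17 to 21 at 16, 18 to 23 at 24 and 24 at 36 hpl, and 1 to 7, 0 and 1 to 3 in the steps. The step from 8 to 16 hpl had 2, 1 and 2 without 8 hpl replicate 1, 16 hpl replicate 2 or 16 hpl replicate 3, and that from 24 to 36 hpl 2, 2 and 3 without 0 hpl replicate 1, 8 hpl replicate 3 or 24 hpl replicate 3. Their medians ran from 0.35 to 0.72, 0.85 to 1.11, 0.92 to 1.03 and 1.32 to 1.46, and in the steps from 0.27 to 0.58, -0.10 to 0.20 and 0.31 to 0.48; the step from 16 to 24 hpl turned below 0 (-0.10) without 16 hpl replicate 1. Hybridisation-control scaling gave 17 calls at 8 hpl and 5 from 24 to 36 hpl, with medians of 1.39, 1.26 and 1.87 at 16, 24 and 36 hpl and 0.61 in the last step. With that scaling all probe sets moved up too, with medians of 0.19, 0.25, 0.20 and 0.38 against 0 hpl at 8, 16, 24 and 36 hpl. The share of all probe sets called is not given for the alternatives, so their counts are no result about the members alone. Repeated quantile normalisation gave medians of 0.80 and 1.19 at 24 and 36 hpl and, like median centring, 3 calls from 8 to 16 hpl. Fits of the compared groups alone gave 5 at 8 hpl and 2 from 8 to 16 hpl, and an adjusted p under 0.01 gave 1 there. A 2-fold minimum left 2, 11 and 9 at 8, 16 and 24 hpl and 0 in both steps. The replicate block, array weights and the omission of 3 high arrays (chosen after seeing the data) each gave 2 from 24 to 36 hpl, and that omission 1 from 8 to 16 hpl. With the 10 genes named by updated symbol 14 were called at 8 hpl. The uncalled 8 hpl differences turned below 0 for ndufs4 (-0.10 under repeated quantile normalisation, -0.056 to 0.13 with one array left out, -0.035 without 0 hpl replicate 2, -0.056 without 8 hpl replicate 3 or 3 high arrays) and sdhda (-0.048 to 0.12, lowest without 8 hpl replicate 2). Of the comparisons of single named members with 0 hpl, over all settings, 880 stayed on their side of the threshold. The call was lost in 33 (12 of them ndufs4 at 16 hpl), in some only through the stricter limits on an unchanged fit. A further 18 gained a call. The cause was not tested. No member had a second named probe set, so averaging probe sets was not run.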
